A study of Homo sapiens with 42 samples.

Results

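Some genes had a single called m6A peak, and the loss of that call leaves such a gene without any unless another is called. The regions described here are these only peaks. They are the peaks of the control list from HepG2 cells, a human hepatocellular carcinoma cell line, whose gene identifier occurs once in that list after repeated rows were dropped. The rule kept 5974 of 33672 peaks, and thus 5974 of the 14570 genes with a peak in the control list, or 41.0% of them. The members were chosen by the number of calls per gene in the control list, so the control values below are a description of that choice and have no test.

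The 42 libraries of the series form 14 groups of 3, an input and an immunoprecipitated (IP) group for each of 7 conditions. All cells were HepG2 infected with lentivirus carrying a short hairpin RNA (shRNA) and kept under puromycin, so the controls carried a hairpin and the selection too. The first set is a non-specific control shRNA (shCtrl) with shMETTL3, shMETTL14, shWTAP and shSETD2#1. The second set is shSETD2#2 with a non-specific control of its own, labelled as shCtrl for shSETD2#2 and called the second control here. Each targeted writer subunit had a single hairpin, and each condition was pooled from replicates 1 to 3 into 1 list of peaks by the authors, so no value has a replicate error and no test between conditions exists. The labels do not say whether the replicates came from separate cultures. The files used hold peaks and not transcript levels, so neither the reduction of the targeted genes nor liver markers were checked.

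N6-methyladenosine (m6A) is a methyl mark placed on adenosines of messenger RNA while it is made. METTL3 is the catalytic subunit of the writer complex, METTL14 binds the RNA beside it, and WTAP holds the complex in nuclear speckles. Reader proteins that bind the mark affect the splicing, translation and decay of the transcript. SETD2 is a methyltransferase of histone H3 that acts along transcribed genes. In m6A-seq an antibody enriches methylated fragments, and a peak is a stretch of transcript with more IP than input reads. Fold enrichment, the ratio of IP to input over a peak, and the p-value of that excess are the authors' values throughout. Unmethylated by call means here that a list holds no peak under the gene's identifier. It is not a measurement of zero methylation, and less transcript and less methylation cannot be told apart in a missing call.

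In the control list the only peaks were modest in p-value and length, though not in fold enrichment. Their median fold enrichment was 8.57, with quartiles of 4.01 and 15.4 and a range from 1.10 to 588. Their median log10 p was -9.48 and their median length without introns 239 bases. A single block, that is a stretch within 1 exon, made up 62.3% of them, and 50.1% lay on the plus strand. Just outside the rule, the 7590 peaks of genes with 2 peaks had a median fold enrichment of 7.25, a median log10 p of -12.2 and a median length of 269 bases. The only peaks were thus shorter and had weaker p-values than their nearest neighbours in the rule, at a higher fold enrichment. Of the members, 3938 (65.9%) were also in the authors' shorter control list.

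Some of these peaks were not lone sites. Of the only peaks, 1115 (18.7%) shared bases with a control peak on the opposite strand, against 9.60% of the peaks of genes with 2 or more peaks. In 646 of the 1115 the opposite peak had the better p-value, and in 51 the opposite peak had the same log10 p and the same fold enrichment. The library kit marked strand, per the labels. Whether the peak calling used it is not stated in the sources at hand, so signal of opposite genes cannot be told apart at these places. On the same strand, 574 members (9.61%) shared bases with a peak of another identifier. Neither kind of overlap was present for 4368 members (73.1%).

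The genes were then followed into the other lists. Of the 5974 genes, 1508 (25.2%, exact Clopper-Pearson 95% interval 24.1 to 26.4%) had no peak in the METTL3 list, against a background of 12.9% over all genes of the control list. In the METTL14 list 1970 genes had none (33.0%, 31.8 to 34.2%, background 18.0%). In the WTAP list 1855 had none (31.1%, 29.9 to 32.2%, background 16.6%), and in the SETD2 #1 list 1714 (28.7%, 27.5 to 29.9%, background 15.1%). The second control, in which no writer was targeted, lacked 1539 of the genes (25.8%, 24.7 to 26.9%, background 13.4%). The METTL3 share thus lay within the interval of the second control, while the METTL14, WTAP and SETD2 #1 shares lay above it. The backgrounds over all control genes put these lists in the same order, so the order was not one of single-peak genes alone. For SETD2 #1 the order turned among the better supported members (control p-value no worse than the members' median), at 5.36% against 6.56% in the second control, and when 50% of both peaks had to be shared, at 40.2 against 43.1%. WTAP was at 25.1% and the second control at 25.0% among members with a fold enrichment of at least 3. For SETD2 #2 the genes counted were the 4435 members with a peak in the second control, and 694 of them had none in the SETD2 #2 list (15.6%, 14.6 to 16.8%, background 8.23%). This share needs a call in both controls, so it is not on the scale of the other lists. All intervals cover counting error only, and the second control differs from the first set in its set as well as in its hairpin.

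A gene with 1 call is left without a peak by 1 loss, and the rule picks genes with few calls in the control, so the higher share than the background follows in part from the choice. The share fell steeply with the number of control peaks. For METTL3 it was 7.85% among the 3795 genes with 2 control peaks, 2.68% among those with 3 and 0.266% among the 751 genes with 6 or more. For METTL14 it was 12.6%, 5.71% and 0.799%, and for the second control 8.27%, 3.17% and 0.799%. The fall was thus of the same kind without a knockdown of a writer. The SETD2 #2 comparison uses the control list only to choose the genes. There the share was 15.6% for single-peak genes against 4.22% (3.79 to 4.67%) for the 8183 genes with 2 or more control peaks. Of the single-peak genes, 3249 again had exactly 1 peak in the second control. The higher share thus follows in part from the choice here too.

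**Figure D1:**
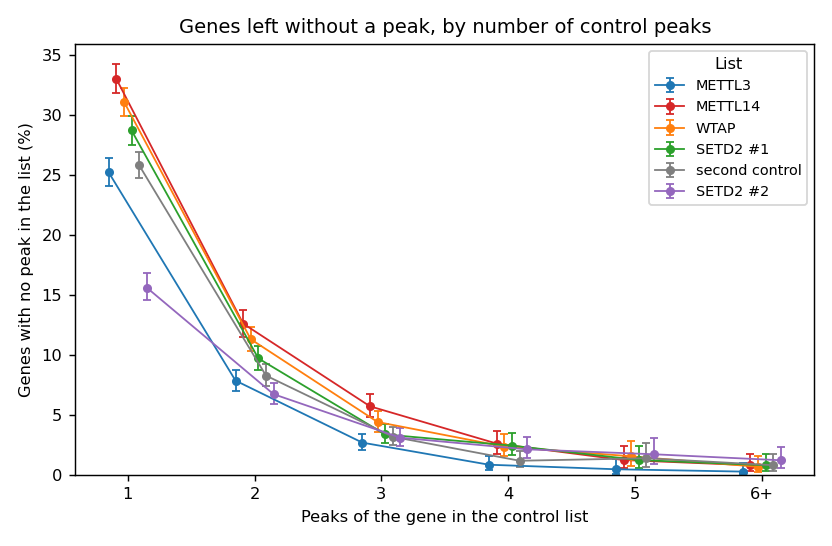
Share of control genes with no peak in each other list (vertical axis, percent) by the number of peaks of the gene in the control list (horizontal axis), with exact 95% intervals for counting error. For SETD2 #2 only genes with a peak in the second control are counted. In all 6 lists the single-peak genes stand highest. Their share runs from 25.2% for METTL3 to 33.0% for METTL14 over all of them, and is 15.6% for SETD2 #2 over its smaller set.

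The reverse was counted as well, since single calls also appear where the control had none. Of the 5642 single-peak genes of the METTL3 list, 9.43% (8.68 to 10.2%) had no peak in the control, against 4.74% of all genes of that list. The METTL14 list gave 8.28% (all its genes 4.42%), WTAP 10.1% (6.19%), SETD2 #1 8.07% (3.84%), and the second control 15.0% (14.0 to 15.9%; all its genes 6.73%). Of the single-peak genes of the SETD2 #2 list, 14.2% (13.3 to 15.2%) had no peak in the second control, against 6.63% of all its genes. In the first set fewer genes entered than left, with single-peak genes leaving at 25.2 to 33.0%. The second control had this order too, with 25.8% leaving. The control list was the largest, with 33672 peaks and 14570 genes. The other lists held 28645 to 31249 peaks and 12503 to 13526 genes, and the part of list size was not tested. Between SETD2 #2 and the second control, with each list's own single-peak genes, 23.0% (21.9 to 24.1%) of 5369 left against the 14.2% that entered.

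Where the gene kept a peak, it was nearly always the same one. In the METTL3 list 4341 genes (72.7%) had their own peak at the place of the control peak, 125 had a peak elsewhere in the gene only, and 1494 had no peak of the gene and no other same-strand peak at the place. The METTL14 list had the own peak of 3883 genes (65.0%), the WTAP list of 3995 (66.9%) and the SETD2 #1 list of 4160 (69.6%). The second control had it for 4217 (70.6%) and the SETD2 #2 list for 3832 (64.1%), both counted over all members. A gene without a call rarely had the same place called under another identifier, in 14 genes for METTL3 and 21 each for METTL14 and WTAP. A peak on the opposite strand covered the place of a gene without a call in 53, 53 and 49 genes of the METTL3, METTL14 and WTAP lists, in 60 for SETD2 #1 and in 71 for the second control.

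**Figure D2:**
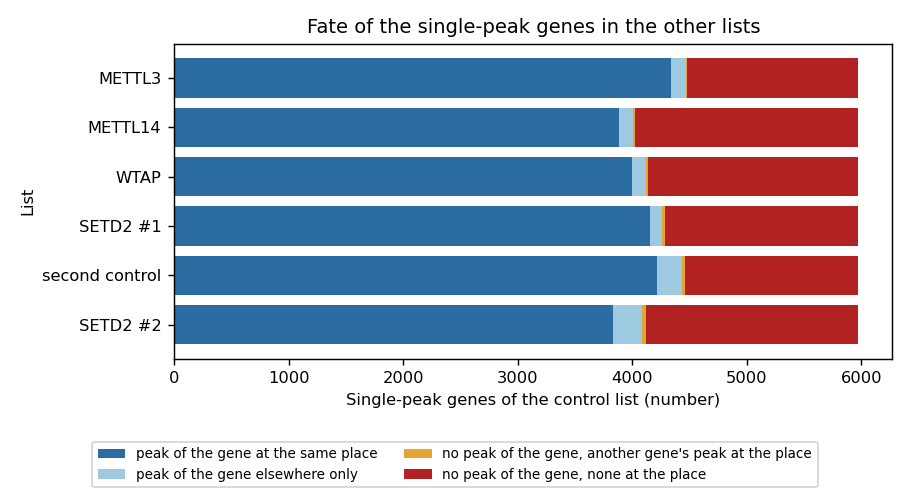
Number of the 5974 single-peak genes (horizontal axis) by what each other list holds for them, with 1 bar per list and SETD2 #2 counted over all members. The dark blue part, a peak of the gene at the same place, runs from 3832 genes for SETD2 #2 to 4341 for METTL3, and a peak elsewhere only is the rarer case, from 100 genes for SETD2 #1 to 251 for SETD2 #2.

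Single-peak status itself was only partly repeated. In the second control 3249 genes (54.4%) again had exactly 1 peak and 1184 (19.8%) had 2 or more. In the knockdown lists of the first set 55.0 to 63.2% had exactly 1 peak and 11.0 to 12.0% had 2 or more. Those peaks that remained at the place were more often narrower than wider than the control peak, at 57.2% against 18.9% in the METTL3 list and 67.4% against 14.6% in METTL14. The second control gave 57.0% against 26.0%. Over all members the loss of the peak, rather than of the gene, reached 27.1, 34.6, 32.7 and 29.9% in METTL3, METTL14, WTAP and SETD2 #1. It reached 28.9% in the second control and 35.2% in SETD2 #2. The background over all control peaks was 22.8, 29.8, 28.8, 27.0, 28.6 and 34.4% in the same order.

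Weakly supported only peaks made up a large share of the losses. All control peaks were placed in 5 equal classes by p-value, and 23.7% of the members fell in the class with the worst p-values and 17.6% in the best. The worst class held 58.4% of the genes without a METTL3 call, 49.5% for METTL14, 49.9% for WTAP, and 54.8% for the second control. For SETD2 #2 it held 34.4%, and the next class 35.4%. In this class, with a log10 p above -3.95, METTL3 lacked a call for 62.1% of the members, METTL14 for 68.8%, WTAP for 65.2% and SETD2 #1 for 67.5%. The second control lacked one for 59.5%, and SETD2 #2 for 41.6% of the members counted there. Counted as loss of the peak rather than of the gene, 67.7, 73.3, 69.7 and 71.6% of members in this class were lost from these 4 lists. Of other genes' peaks in the class, 62.3, 65.3, 64.1 and 70.3% were lost from the same 4 lists. From the second control 67.5% of either kind were lost. Large losses in this class were thus not limited to the members. In the best class, with a log10 p of -68.6 or less, METTL3, METTL14, WTAP and SETD2 #1 lacked 2, 5, 8 and 1 of the 1051 genes, and the second control 7. The losing genes had short peaks, with a median of 149 or 150 bases in each list of the first set and in the second control, against 271 to 300 bases for those that kept a call.

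With the p-value taken into account, the distance between the only peaks and the peaks of other genes narrowed in the first set. Peaks of genes with 2 or more peaks were lost in 21.9% of cases from the METTL3 list, and 25.1% when their class shares were weighted to the p-values of the members, against 27.1% of members. The weighted values were 32.1% against 34.6% for METTL14, 31.1% against 32.7% for WTAP and 30.0% against 29.9% for SETD2 #1. For the second control and SETD2 #2 the order turned, with 31.8% against 28.9% and 37.9% against 35.2%. The weighted excess of the only peaks lay mainly in the weakest class, where 67.7% of them and 62.3% of other peaks were lost from METTL3, 73.3 and 65.3% from METTL14, and 69.7 and 64.1% from WTAP. In the middle class the METTL14 values were 26.0% for only peaks and 26.6% for others, and the WTAP values 24.7 and 25.8%. In that class 17.7% of only peaks and 23.2% of others were lost from the second control. These differences were not tested.

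Genes without a call in the knockdowns of the first set had a lower median control fold enrichment than genes that kept one. The medians did not differ for the second control. In the METTL14 list the lost genes had a median control fold enrichment of 4.86 and the others 10.1, and in the WTAP list 4.46 and 10.3. The METTL3 values were 5.71 and 9.43, and those of SETD2 #1 6.43 and 9.30. For the second control both medians were 8.57, with quartiles of 3.55 and 12.0 for the lost genes and 4.18 and 17.1 for the others. It lacked 10.8% of the genes in the highest of 5 fold enrichment classes, against 22.9 to 32.6% in the other classes. The classes below the highest showed no steady fall, at 30.3, 22.9, 32.6 and 32.2% from the lowest up. The highest class also had the best median log10 p, -39.4, and the longest median length, 446 bases. The part of enrichment alone in its lower share was not tested. For SETD2 #2 the medians of lost and kept genes were 9.29 and 8.57. The median log10 p of the lost genes was similar in the first set and the second control, from -3.57 to -3.99.

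Within classes of p-value the split depended on the class and on the list. In the middle class, where the median log10 p was -11.9 on the side of low fold enrichment and -11.7 on the other, the 590 members with a fold enrichment below 6.50 were unmethylated by call in METTL14 in 38.0% of cases (34.0 to 42.0%), against 12.5% (9.98 to 15.5%) of the 590 at or above it. For WTAP these shares were 38.6% (34.7 to 42.7%) and 9.32% (7.10 to 12.0%). For METTL3 they were 16.8 and 7.80%, and for SETD2 #1 21.2 and 11.2%. The second control gave 18.5% (15.4 to 21.8%) and 14.4% (11.7 to 17.5%), whose intervals overlap. For SETD2 #2 the order was reversed, with 10.8% (8.18 to 13.9%) below and 19.8% (16.4 to 23.5%) at or above. In the next weaker class METTL14 kept the order with 60.8 and 35.2%, and WTAP with 58.6 and 32.4%, while the second control turned it with 29.9 and 39.2%. SETD2 #1 gave 44.1% (40.2 to 48.1%) and 40.8% (36.9 to 44.7%) there, with overlapping intervals. In the weakest class the METTL3 shares were 62.5 and 61.8%, those of SETD2 #1 66.0 and 69.0%, and those of the second control 50.5 and 68.5%. In METTL14 the intervals of the low and high side overlapped in the strongest and the weakest class, where the latter gave 70.4% (66.9 to 73.7%) and 67.1% (63.5 to 70.6%). Outside the strongest class, SETD2 #2 lost more genes on the high side in each class, with intervals that did not overlap, and in the strongest class the numbers were 1 and 4 genes.

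The low side of the middle class had a median fold enrichment of 3.69 and peaks of 232.5 bases, and the high side 14.6 and 300.0 bases. Transcript level and read depth were not analysed here. Peaks of genes with 2 or more peaks showed the same order, with 36.0 and 11.2% of peaks lost from METTL14 and 37.2 and 7.11% from WTAP in that class. The pattern was therefore not one of single-peak genes alone. At the second control, without a writer knockdown, peaks of other genes had this order too, with 28.8% (27.3 to 30.3%) lost on the low side and 13.9% (12.5 to 15.5%) on the high side. Of the only peaks there, 20.3% (17.2 to 23.8%) were lost on the low side and 15.1% (12.3 to 18.2%) on the high side.

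**Figure D3:**
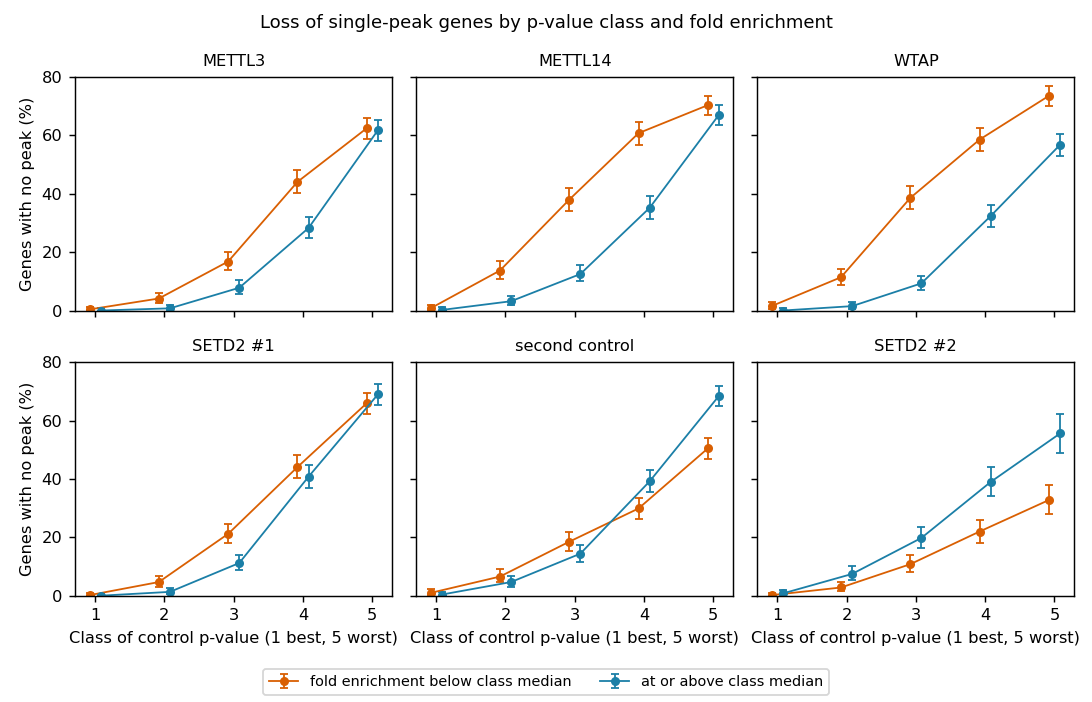
Share of single-peak genes with no peak in each list (vertical axis, percent, with exact 95% intervals) by class of control p-value (horizontal axis, 1 the best), split at the median fold enrichment of each class. In the middle class the METTL14 points stand at 38.0% below and 12.5% above the median, and the SETD2 #2 points, over genes with a second control peak, at 10.8% and 19.8%.

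A stricter count used only the better supported members, no overlap with a peak of another gene on either strand, and a place left empty on both strands. Of the 2031 such genes 224 (11.0%, 9.70 to 12.5%) were unmethylated by call in METTL14 and 202 (9.95%, 8.68 to 11.3%) in WTAP. METTL3 had 91 (4.48%, 3.62 to 5.47%) and SETD2 #1 121 (5.96%, 4.97 to 7.08%). The second control had 128 (6.30%, 5.28 to 7.45%), and SETD2 #2 99 of 1903 (5.20%, 4.25 to 6.30%). Among well supported single-peak genes, METTL14 and WTAP thus lay above the second control, while the intervals of METTL3, SETD2 #1 and the second control overlapped. Under the same filter, places empty on both strands made up 11.5% (10.1 to 12.9%) of only peaks and 10.4% (9.87 to 10.9%) of the 12702 peaks of genes with 2 or more peaks in METTL14. For WTAP they were 10.5% (9.19 to 11.9%) and 9.90% (9.38 to 10.4%), with overlapping intervals as in METTL14. The METTL3 values were 4.83% (3.93 to 5.85%) and 3.45% (3.14 to 3.78%), those of SETD2 #1 6.15% (5.15 to 7.29%) and 4.68% (4.32 to 5.07%), and those of the second control 7.09% (6.01 to 8.29%) and 9.55% (9.04 to 10.1%). For SETD2 #2, over all members, they were 9.95% (8.68 to 11.3%) and 12.3% (11.7 to 12.9%). Under this filter the METTL14 and WTAP intervals overlapped that of the second control among the other peaks, and did not among the only peaks. The second control value was itself lower among the only peaks. Without the filter, genes with 2 or more control peaks lacked a METTL14 call in 7.54% of cases (6.99 to 8.12%). The WTAP share was 6.60% (6.08 to 7.14%) and that of the second control 4.80% (4.36 to 5.28%). Higher METTL14 and WTAP shares were thus not limited to single-peak genes.

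The genes without a call are given here by the position of their only peak in hg19, because the tables identify genes by Ensembl identifier and no table used here pairs these with symbols. The examples are those with the best control p-values among the genes without a call in each list. The 4 lists of the first set share the control, so a gene's values are given side by side and its repeated absence is not read as agreement.

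The best supported gene without a METTL3 call was ENSG00000229117.8, whose peak lay at chr12:56510987-56511374 (plus strand) in 2 blocks of 118 bases together. Its control fold enrichment was 1.32 with a log10 p of -190. It had no peak in METTL3, METTL14 or WTAP, a fold enrichment of 1.15 in SETD2 #1, 2.81 in the second control and 2.64 in SETD2 #2. A slight enrichment in the control thus came with a very small p-value, and the peak was wider in the second control, at 706 bases. The next was ENSG00000087086.13, at chr19:49469157-49469579 (plus strand), with a control fold enrichment of 1.24 over 59 bases. It had no call in METTL3 and WTAP, a fold enrichment of 1.39 in METTL14, 1.99 in SETD2 #1, 1.18 in the second control and 1.20 in SETD2 #2. It was thus at or below 1.99-fold wherever it was called. The SETD2 #1 peak was wider and better supported, with 205 bases and a log10 p of -2570 against -101 in the control. The third to sixth ranged from 1.68-fold to 4.09-fold in the control.

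The METTL14 examples included a peak with strong enrichment. At chr14:64009523-64010062 (minus strand), a peak of 540 bases had a control fold enrichment of 98.4 and a log10 p of -115. METTL14 had no peak of the gene, while the gene's peak there had a fold enrichment of 9.81 in METTL3, 33.4 in WTAP, 3.93 in SETD2 #1, 32.0 in the second control and 4.42 in SETD2 #2. The control value was thus the highest of the 6 lists that called it, and SETD2 #1 and both lists of the second set held 2 peaks of the gene. A peak at chr2:62115369-62115701 (minus strand) was 3.35-fold in the control and 2.19, 1.40, 2.68, 1.88 and 1.79-fold in METTL3, WTAP, SETD2 #1, the second control and SETD2 #2. A peak at chr17:1946222-1946719 (minus strand), 3.07-fold in the control, overlapped an opposite-strand peak, and in METTL14 its place was covered on the opposite strand only.

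Without a call in WTAP, the leading gene had a peak of 270 bases at chr11:122928227-122928496 (minus strand), with a log10 p of -471 and a fold enrichment of 2.34 in the control. It was 2.17-fold in METTL3, 1.37-fold in METTL14, 1.60-fold in SETD2 #1, 1.75-fold in the second control and 2.17-fold in SETD2 #2. The next, at chr6:44217891-44218206 (plus strand), was 1.66-fold in the control, 1.33-fold in METTL3 and 1.13-fold in METTL14. It was 1.77-fold in SETD2 #1 and 2.84 and 3.21-fold in the second control and SETD2 #2, whose lists gave the gene 3 and 2 peaks. A stronger peak lay at chr5:82858040-82877139 (minus strand) in 2 blocks, 12.7-fold in the control, 7.67-fold in METTL3 and 2.87-fold in METTL14, and it overlapped an opposite-strand peak.

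The SETD2 #1 examples began at a weaker level, with 1 gene of the best p-value class. Its peak of 4 blocks at chr1:220180687-220191847 (minus strand) had a log10 p of -69.4 and a fold enrichment of 4.46 in the control. The gene's peak was 1.68, 2.57 and 1.54-fold in METTL3, METTL14 and WTAP, and the second control and SETD2 #2 had 3 and 4 peaks in the gene. A peak at chr22:40742507-40742687 (plus strand) was 6.44-fold in the control, 4.49-fold in METTL3, 4.07-fold in METTL14, 4.75-fold in the second control and 4.60-fold in SETD2 #2, with no call in WTAP or SETD2 #1. The second example, at chr12:9268019-9268615 (minus strand), 2.78-fold in the control, had no call in any knockdown of the first set. It was 2.93-fold in the second control and 3.12-fold in SETD2 #2.

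The SETD2 #2 examples had higher control fold enrichment, from 18.4 to 515 in 5 of the 6 and 2.97 in the other. A peak of 2223 bases at chr1:161494330-161496552 (plus strand) was 124-fold in the control and 27.9, 14.6, 30.9 and 12.3-fold in METTL3, METTL14, WTAP and SETD2 #1. In the second control it was 12.2-fold over 61 bases, and the SETD2 #2 list had none. A peak in 3 blocks at chr22:33210063-33210372 (minus strand) was 515-fold in the control, 112, 45.2, 97.1 and 66.5-fold in METTL3, METTL14, WTAP and SETD2 #1, and 20.6-fold in the second control. At chr12:10104656-10105845 (minus strand), a peak was 18.4-fold in the control and 2.14-fold in the second control. Of the 6 examples, 5 had only a weak call in the second control, with a log10 p between -8.66 and -3.04. The exception, a peak at chr1:39456895-39457193 (plus strand), was 55.1-fold in the control and 7.01-fold with a log10 p of -57.8 in the second control.

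**Figure D4:**
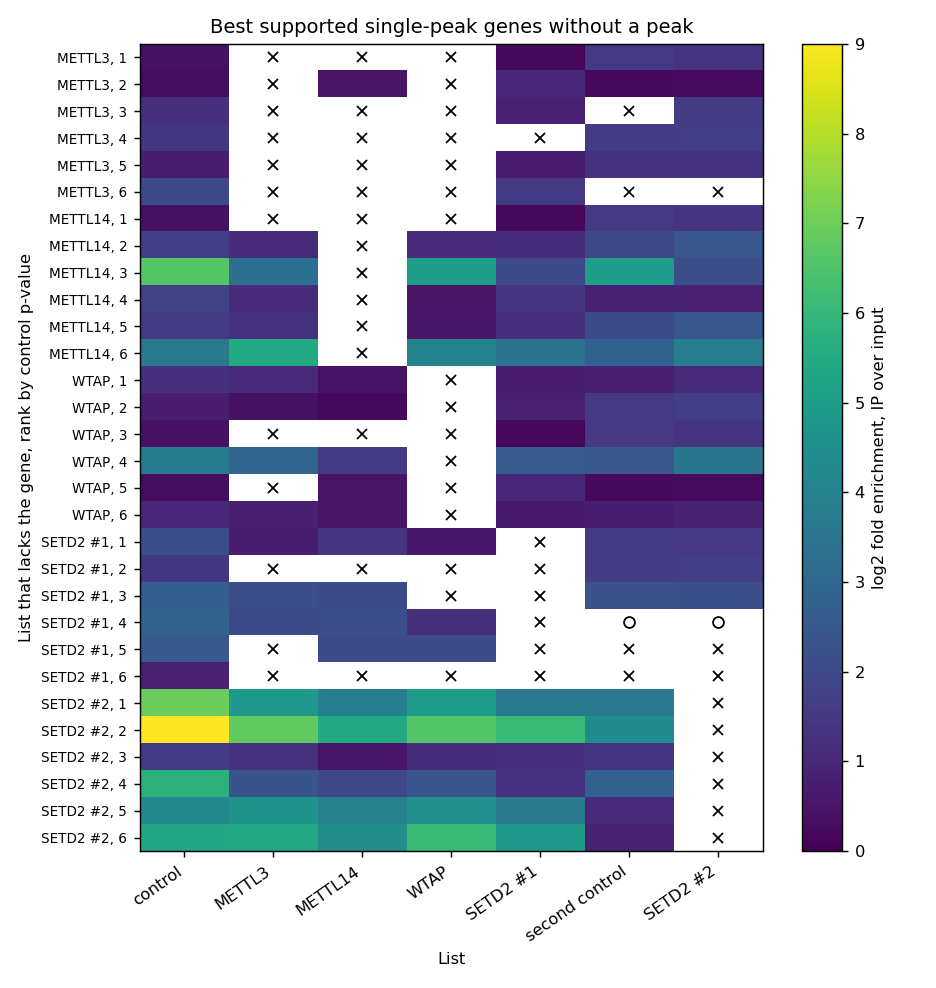
Fold enrichment (colour, log2 scale, authors' values within each list) of the only peaks of the 6 best supported genes without a call in each of 5 knockdown lists (lines, labelled by list and rank) in all 7 lists (columns). A cross marks no peak of the gene and a circle a peak of the gene elsewhere only; the SETD2 #2 lines hold control values up to 515-fold, while the METTL3 lines stay at or below 4.09-fold in the control.

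Other examples had a call in both SETD2 lists and the second control and none in METTL3, METTL14 or WTAP. This held for 125 genes (2.09%, against 1.17% of all control genes), of which 21 belonged to the better supported members. Their median control fold enrichment was 2.57 against 8.57 for all members. A peak of 151 bases at chr2:203165058-203167761 (plus strand) was 1.62-fold in the control, 1.38-fold in SETD2 #1, 2.31-fold in the second control and 3.64-fold in SETD2 #2. At chr4:20702073-20702341 (plus strand), a peak was 27.4-fold in the control, 2.31-fold in SETD2 #1, 5.60-fold in the second control and 2.07-fold in SETD2 #2. A similar one at chr2:243030814-243037138 (plus strand) was 27.0-fold, 2.95-fold, 14.5-fold and 3.62-fold in the same lists. Low enrichment was thus the rule in this group, with 2 exceptions among the 10 examples.

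The genes with a call in the second control and none in either SETD2 list numbered 299 (5.01%, against 2.65% of all control genes), with a median control fold enrichment of 8.14, and 23 belonged to the better supported members. A peak of 328 bases in 3 blocks at chr19:48825212-48829266 (plus strand) was 5.17-fold in the control, 18.8-fold in METTL3, 16.0-fold in METTL14, 12.3-fold in WTAP and 6.01-fold in the second control. A peak at chr4:109541722-109541930 (plus strand) was 2.70-fold in the control, 5.28-fold in METTL3, 3.20-fold in METTL14, 1.84-fold in WTAP and 2.73-fold in the second control. These were picked from the 6 examples after their values were seen, as the only ones above the control in both METTL3 and METTL14. Of the other 4, that at chr17:4642329-4643217 (minus strand), 9.43-fold in the control, was 13.7-fold in METTL3, 2.58-fold in METTL14 and 4.28-fold in WTAP. The gene with the best p-value, at chr20:26188980-26189687 (minus strand), was 2.17-fold in the control and had no call in METTL14. In the second control the peaks named here had a log10 p of -11.1, -7.2, -9.2 and -2.8 in turn. Over the 6 examples it lay between -18.3 and -2.8, so some of the absences from SETD2 #2 are set against weak calls.

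At the other end, 2610 genes (43.7%) had a call in all 7 lists, against 66.9% of all control genes and 83.1% of those with 2 or more control peaks. Their only control peaks had a median fold enrichment of 11.1, a median log10 p of -44.0 and a median length of 390 bases. The leading example was ENSG00000205138.3, with a peak of 1029 bases at chr19:36486189-36487217 (plus strand) and a p-value listed as 0. Its fold enrichment was 271 in the control, then 170, 47.3, 106 and 87.6 in the knockdowns METTL3, METTL14, WTAP and SETD2 #1, and 16.8 and 9.83 in the second control and SETD2 #2. ENSG00000138080.13 had a peak of 8 blocks and 3928 bases at chr2:27301435-27309246 (plus strand), 228-fold in the control and 149, 94.8, 144 and 88.9-fold in the first-set knockdowns METTL3, METTL14, WTAP and SETD2 #1. It was 29.8-fold in the second control and 13.4-fold in SETD2 #2, where the gene had 3 peaks in each list. A peak of 658 bases in 5 blocks at chr15:44829255-44846783 (plus strand) was 125-fold in the control and 30.4, 31.1, 27.2, 16.5, 30.1 and 14.9-fold in the other lists in the order above. A p-value listed as 0 was shared by 313 members, and the 10 examples stand in falling order of control fold enrichment, from 271 to 89.3. The control list, which this choice favours, had the highest fold enrichment in 9 of the 10. The exception lay at chr19:13263885-13265007 (minus strand), 168-fold in the control and 211-fold in WTAP. The median fold enrichment over all peaks was 4.33 in the second control and 3.81 in SETD2 #2, against 6.79 in the control.

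The genes without a call in any of the other 6 lists numbered 361 (6.04%, against 2.67% of all control genes), with a median log10 p of -2.89 and a median length of 120 bases, and 9 of them belonged to the better supported members. The best supported lay at chr12:57039101-57039792 (minus strand), 1.79-fold over 209 bases with a log10 p of -30.4. Of the other 3 examples, a pair lay on chromosome 11 from 63742092 to 63753673 and from 63742109 to 63743717, both on the plus strand. Each shared bases with a peak of another identifier, so this stretch counted for more than 1 gene.

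Across chromosomes, single-peak genes made up from 34.6% (31.4 to 37.9%) of the genes with a control peak on chromosome 16 to 49.5% (44.7 to 54.4%) on chromosome 4. The share unmethylated by call in METTL14 went from 22.2% (17.6 to 27.4%) of the 297 genes on chromosome 16 to 44.8% (39.2 to 50.5%) of the 308 genes on chromosome 3. For WTAP these chromosomes gave 22.6% (17.9 to 27.7%) and 42.2% (36.6 to 47.9%). For METTL3 they gave 20.9% and 28.9%, and for the second control 25.3% (20.4 to 30.6%) and 28.9% (23.9 to 34.3%). Over all control genes the METTL14 shares on these chromosomes were 9.66% (7.77 to 11.8%) and 23.7% (20.7 to 26.9%), and over genes with 2 or more control peaks 3.02% (1.77 to 4.80%) and 8.58% (6.12 to 11.6%). The difference between the chromosomes was thus not one of single-peak genes alone. The median log10 p of the members was -14.3 on chromosome 16 and -7.84 on chromosome 3, and its part in the difference was not tested. Chromosomes 3 and 16 were picked as the extremes of METTL14, and the second control had a wide range of its own. Its share went from 19.6% (14.0 to 25.8%) on chromosome 14 to 39.2% (28.4 to 50.9%) of the 79 genes on chromosome 21. The other 10 members lay outside chromosomes 1 to 22 and X.

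**Figure D5:**
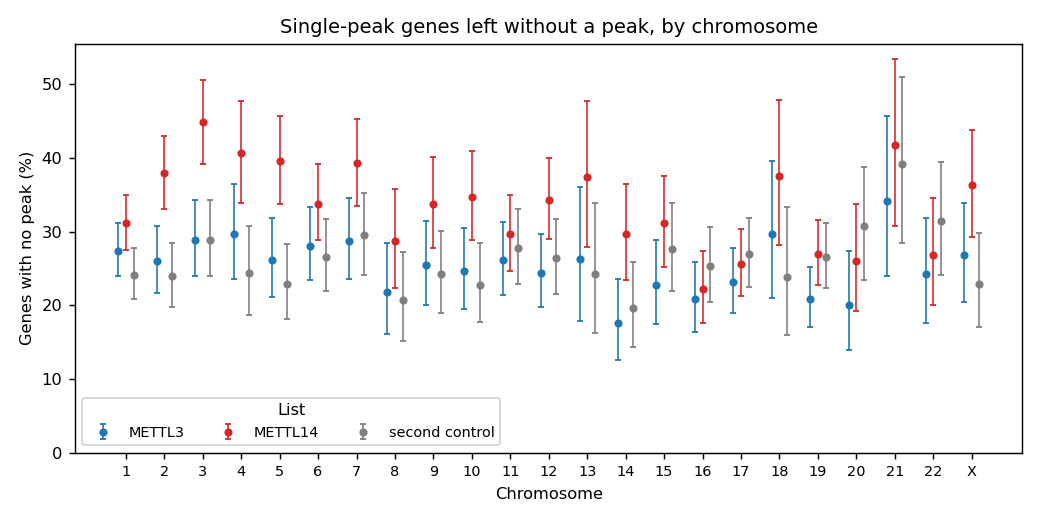
Share of single-peak genes with no peak (vertical axis, percent, with exact 95% intervals for counting error) in the METTL3, METTL14 and second control lists by chromosome (horizontal axis). The METTL14 points run from 22.2% on chromosome 16 to 44.8% on chromosome 3, where the second control stands at 28.9%. The second control points run from 19.6% on chromosome 14 to 39.2% on chromosome 21.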

How the data were processed

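Per the submitters' processing notes, reads were handled with FastQC 0.11.5 and TopHat2 2.1.1 and the build was hg19. Per the labels, exomePeak called peaks on replicates 1 to 3 together. Its version and annotation, and whether it used strand, were not given in the sources used here. Per the file headers, the deposited tables give a p-value, the log10 of the p-value and of the false discovery rate (scores, as they reach minus infinity), and the ratio of IP to input as fold enrichment. Counts of reads are not in the tables, so depth is unknown.

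Rows repeating another's strand and blocks, 11 to 21 per table, were dropped. A gene was unmethylated by call when its identifier was in no row of the other table, repeated rows included. A peak was lost when no same-strand peak shared at least 1 base of its blocks. Shares carry exact Clopper-Pearson intervals (Python 3.11.15, numpy 2.4.6, pandas 2.3.3, scipy 1.17.1). The calls were checked on simulated data with known genes removed. Members and measures were chosen with earlier results of these data known. Classes by fold enrichment, the opposite-strand overlap, the reverse count, the chromosomes and the counts over all genes set beside those of the members were added after the data were examined. Named peaks were the best by control p-value (or fold enrichment) among genes with a given set of calls. The planned gene lists and markers could not be used, since identifiers were matched to 0 symbols, and the planned rule named genes by symbol, so positions are given instead. Of each ranked set, those printed were picked after their values were seen. Peak sequences were not used here.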

Additional observations from a re-analysis of the deposited data

How the results depend on the processing

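No paired analysis was possible because each list pools replicates 1 to 3, which also kept single replicates from being left out. The share of single-peak genes without a peak is given for METTL3, METTL14, WTAP, SETD2 #1, the second control and SETD2 #2 in this order wherever 6 values follow. With members at or better than their median p-value it was 3.82, 9.91, 8.91, 5.36, 6.56 and 5.41%, and METTL3 and SETD2 #1 then lay below the second control. When a peak counted as kept only if 50% of its bases and of its partner's were shared, the share was 36.4, 47.1, 44.7, 40.2, 43.1 and 26.1%, and METTL3 and SETD2 #1 again lay below the second control. Counting loss of the peak, METTL3 was at 27.1%, METTL14 at 34.6%, WTAP at 32.7% and the second control at 28.9% (27.7 to 30.1%), an interval that held the 29.9% of SETD2 #1. Fold enrichment of at least 3 gave 21.4, 27.7, 25.1 and 26.7% for the 4 knockdowns of the first set, and WTAP was then at the level of the second control, 25.0%. In the shorter lists METTL3 was at 22.7%, WTAP at 29.7%, the second control at 27.8% and SETD2 #2 at 18.5%, and SETD2 #1, at 28.8%, lay within the interval of the second control (26.7 to 29.0%). Without members overlapping an opposite-strand peak, a setting chosen after seeing the data, the knockdowns of the first set gave 27.2, 35.3, 33.5 and 30.3%. Single-peak genes of the second control, also chosen after seeing the data, gave 23.0% for SETD2 #2. Of the 43 alternative values, 14 stayed within the interval of the reported share. Weak peaks depend on read depth, which the lists do not give, and the cause of these changes was not tested.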
